A study of Homo sapiens with 19 samples.

Results

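Small nucleolar RNA (snoRNA) host genes are genes that carry snoRNAs in their introns. The members described here are every gene whose Ensembl ID maps to a symbol of SNHG followed by a number, together with GAS5, ZFAS1, DANCR and EPB41L4A-AS1 (32 noncoding hosts in all), and the protein-coding genes TAF1D, CCAR2, EEF1B2, EIF4A2 and RACK1 (5 coding hosts). All 37 had a row in each of 3 gene tables, which hold 60612, 63086 and 82890 gene IDs, or 84354 different IDs in all. The libraries come from HCT116 and WiDr, established human colorectal carcinoma lines grown in standard culture. HCT116 cells received DMSO, the vehicle (n = 3), 10 µM GSK025, labelled as a PRMT5 inhibitor (n = 3), or 5 µM GSK715, labelled as a PRMT1 inhibitor (n = 3), each for 96 h. WiDr cells received DMSO (n = 3) or 5 µM GSK715 (n = 3) for 96 h and were sequenced with short reads, and further DMSO (n = 2) and GSK715 (n = 2) libraries of WiDr were full-length cDNA read by Oxford Nanopore (ONT). The WiDr control columns are named NC in the tables and were taken as DMSO, the only control that the labels give for this line. PRMT1 and PRMT5 are enzymes that methylate arginines of proteins. The doses of the inhibitors differ, so a difference between them is one of compound and dose together.

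A host gene is transcribed as one precursor, and its snoRNAs are cut from the introns after splicing. Box C/D snoRNAs guide the methylation of riboses in ribosomal and spliceosomal RNA, and box H/ACA snoRNAs guide the conversion of uridine to pseudouridine. The spliced exons leave a polyadenylated RNA that codes for a protein in the coding hosts and has no long reading frame in most of the others; spliced RNAs of GAS5 and SNHG1 are known targets of nonsense-mediated decay, which removes RNAs with an early stop codon. Many host genes, coding and noncoding, start transcription at a C followed by a run of pyrimidines, as ribosomal protein genes do.

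RefSeq named 164 snoRNAs inside the 37 members, 127 of them C/D, 33 H/ACA and 4 of the related scaRNAs of Cajal bodies. SNHG14, the long host of the imprinted Prader-Willi region, held 83 of them. RefSeq named none inside SNHG27, SNHG28 and CCAR2, so the word host rests on the name or the rule for these 3. The libraries were enriched for polyadenylated RNA per the labels, and the rows of the snoRNAs themselves were nearly empty: of 162 snoRNAs that GENCODE 29 places inside members, 12 reached 10 counts in any HCT116 library, 5 in any WiDr short-read library and 1 in any ONT library. The snoRNAs of GAS5 are not among these 162 and were not analysed here. The values in this text are therefore those of the spliced or precursor host RNA, and snoRNA levels are not given.

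The snoRNAs of the hosts with large differences show what these introns carry. They are given 5′ to 3′ on the host strand from GENCODE 29 (build GRCh38), with capitals on box C (TGATGA, sought in the first 20 bases) and box D (CTGA, last 15 bases) of the C/D class and on the ACA box (last 8 bases) of the H/ACA class, searched on the transcribed strand only.
SNORD60 (chr16:2155023-2155105, minus strand, in SNHG19): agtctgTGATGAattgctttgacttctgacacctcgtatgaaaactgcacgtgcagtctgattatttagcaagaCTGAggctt
SNORD104 (chr17:64146083-64146152, plus strand, in SNHG25): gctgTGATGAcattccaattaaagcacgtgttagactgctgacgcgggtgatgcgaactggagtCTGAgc
SNORD49A (chr17:16440036-16440106, plus strand, in SNHG29): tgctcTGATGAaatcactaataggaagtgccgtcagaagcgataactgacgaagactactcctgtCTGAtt
SNORD49B (chr17:16439505-16439576, plus strand, in SNHG29): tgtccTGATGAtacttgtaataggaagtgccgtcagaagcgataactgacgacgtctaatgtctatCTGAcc
SNORD48 (chr6:31835263-31835326, plus strand, in SNHG32): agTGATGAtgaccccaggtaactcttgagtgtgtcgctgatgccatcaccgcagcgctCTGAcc
SNORA17A (chr9:136726747-136726879, minus strand, in SNHG7): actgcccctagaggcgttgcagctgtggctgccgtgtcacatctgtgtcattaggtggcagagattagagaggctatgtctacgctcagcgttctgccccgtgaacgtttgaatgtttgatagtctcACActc
SNORA24 (chr4:118279190-118279320, plus strand, in SNHG8): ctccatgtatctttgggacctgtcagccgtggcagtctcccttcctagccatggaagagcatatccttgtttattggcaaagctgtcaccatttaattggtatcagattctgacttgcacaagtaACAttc
SNORA9 (chr7:44985378-44985510, minus strand, in SNHG15): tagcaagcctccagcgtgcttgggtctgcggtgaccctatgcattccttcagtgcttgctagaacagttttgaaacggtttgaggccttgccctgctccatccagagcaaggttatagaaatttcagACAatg
SNORD49A and SNORD49B of SNHG29 share an unbroken stretch of 35 bases. Both boxes in these letters were present in 66.5% of 278 SNORD transcripts, and the ACA box in 91.2% of 147 SNORA transcripts.

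The sequence at the start site was available from RefSeq (GRCh38.p14) for 28 of the 32 noncoding hosts and 4 of the 5 coding hosts. A C followed by at least 4 pyrimidines, lying within 5 bases of the start on the transcribed strand, was present in 13 of these 28 (46.4%) and in 4 of these 4, against 25.2% of 27305 genes of the same table, each counted once if any of its starts had the run (21.1% of 35116 promoters). EEF1B2 has a start with the run and a start without it. The windows run from 40 bases before to 20 bases after the start, with that run in capitals. The first 6 hosts have the run, and GAS5 and SNHG1 are shown because they do not have it at these RefSeq starts. GENCODE 29 places the start of these minus-strand genes elsewhere, at 173868882 against 173869045 in RefSeq for GAS5. For SNHG1 it is 62855914 against 62855885. The GENCODE 29 starts were not searched, so both hosts count below as without the run by the RefSeq starts only.
SNHG19 (chr16:2155339-2155398, minus strand): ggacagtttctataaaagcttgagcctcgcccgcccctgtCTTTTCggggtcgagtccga
SNHG7 (chr9:136728165-136728224, minus strand): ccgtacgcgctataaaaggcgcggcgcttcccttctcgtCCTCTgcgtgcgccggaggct
SNHG32 (chr6:31834876-31834935, plus strand): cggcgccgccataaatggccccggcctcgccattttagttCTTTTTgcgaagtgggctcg
ZFAS1 (chr20:49278602-49278661, plus strand): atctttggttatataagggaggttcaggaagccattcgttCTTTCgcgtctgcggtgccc
SNHG12 (chr1:28581854-28581913, minus strand): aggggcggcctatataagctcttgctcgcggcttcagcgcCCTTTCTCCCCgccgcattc
SNHG8 (chr4:118278722-118278781, plus strand): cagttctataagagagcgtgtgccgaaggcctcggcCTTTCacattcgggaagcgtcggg
GAS5 (chr1:173869026-173869085, minus strand): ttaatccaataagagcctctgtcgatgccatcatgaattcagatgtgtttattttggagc
SNHG1 (chr11:62855866-62855925, minus strand): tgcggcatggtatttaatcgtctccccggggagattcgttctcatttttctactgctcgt
With GSK715 in HCT116, 9 of the 12 tested noncoding hosts with the run were higher and 1 lower, and 6 of the 13 without it were higher and 0 lower. The counterparts in WiDr short reads were 5 higher and 3 lower of 11 with the run, and 7 higher and 3 lower of 13 without it. Of all genes tested, 22.1% were higher and 24.2% lower in HCT116, and 33.6% higher and 32.2% lower in WiDr short reads. These counts are descriptions, and the difference between hosts with and without the run was not tested.

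Totals were about 64558700 to 66915800 counts per HCT116 library, 59612900 to 82390300 per WiDr short-read library and 1449700 to 1667810 estimated counts per ONT library, so low hosts are measured least precisely by ONT. Whether replicates came from separate cultures is not stated, and the p-values then reflect only how these libraries scatter, which may be technical. All 6 epithelial markers were detected in both lines, and EPCAM was at 225 to 255 CPM (counts scaled by library size with edgeR's TMM factors) in HCT116 and 472 to 556 CPM in WiDr short reads. Of 5 colon markers, CDX2 was at 10.7 to 16.7 CPM in HCT116, where CDX1, VIL1 and LGALS4 stayed under 1 CPM and CDH17 reached at most 1.17 CPM. In WiDr short reads LGALS4 was at 377 to 690 CPM, VIL1 at 61.6 to 104 CPM, CDH17 at 4.37 to 21.8 CPM, CDX2 at 0.52 to 1.84 CPM and CDX1 under 1 CPM. By ONT CDX1 was at 5.49 to 6.77 CPM. The colon markers summed to 11.6 to 13.7 CPM with DMSO, 16.6 to 17.3 CPM with GSK025 and 12.9 to 17.5 CPM with GSK715 in HCT116, and to 711 to 766 CPM with DMSO and 499 to 514 CPM with GSK715 in WiDr short reads. The sum in WiDr is mostly LGALS4. Taken singly, 4 of the 5 were higher and 1 lower there with GSK715 (edgeR, adjusted p under 0.05), with a median log2 fold change of 1.60. Of all genes tested, 33.6% were higher and 32.2% lower. The epithelial markers summed to 4828 to 4932 CPM with DMSO, 7916 to 8332 CPM with GSK025 and 6350.3 to 6814 CPM with GSK715 in HCT116, and to 15335 to 15583 CPM with DMSO and 22800.4 to 23304 CPM with GSK715 in WiDr short reads. PTPRC, the defining marker of blood cells, was at 0 in every HCT116 library and at most 0.134 CPM in WiDr short reads, where COL3A1 and DCN were at 0. By ONT, PTPRC and DCN reached at most 0.681 CPM and COL3A1 was at 0. The 10 stromal, endothelial and immune markers summed to 55.0 to 58.9 CPM with DMSO, 40.1 to 44.5 CPM with GSK025 and 101 to 110 CPM with GSK715 in HCT116, mostly CD68 and COL1A1, and to 20.6 to 22.9 CPM and 37.1 to 43.5 CPM with DMSO and GSK715 in WiDr short reads. Mitochondrially encoded genes took 8.64% to 9.09% of HCT116 counts with DMSO and 5.09% to 5.42% with GSK715, and 6.07% to 6.49% and 8.30% to 8.83% in WiDr short reads. The part of the marker sums in the host results was not tested. Without the mitochondrial genes, 22 members were higher and 2 lower with GSK715 in HCT116, and 16 higher and 9 lower in WiDr short reads, the same counts as with them.

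With DMSO, the coding hosts EEF1B2 and RACK1 were the most abundant members per kb of exons. In HCT116, EEF1B2, the exchange factor of the translation elongation factor eEF1A, was at 268 CPM per kb (range 265 to 269), and RACK1, a scaffold on the small ribosomal subunit, at 247 (245 to 250). SNHG29 led the noncoding hosts of that line at 159 CPM per kb (152 to 164), followed by ZFAS1 at 97.4 (95.5 to 101), SNHG6 at 80.3 (78.7 to 82.2), GAS5 at 77.0 (76.3 to 77.6) and SNHG32 at 71.9 (71.3 to 73.0). These neighbours did not overlap in their ranges. WiDr had another order: after EEF1B2 at 193 and RACK1 at 168, SNHG1 stood at 97.2 CPM per kb (96.3 to 97.8) and SNHG8 at 96.0 (89.8 to 104), whose ranges overlapped. SNHG29 was at 66.8 (65.1 to 68.5), GAS5 at 63.1 (61.8 to 63.7) and ZFAS1 at 59.4 (54.5 to 61.9) in WiDr, the last 2 overlapping. The tables were normalized separately, so a level is not compared between the lines here. Exonic length counts every base of any exon that GENCODE 29 gives a gene, such as 3756 bases in 3 blocks for SNHG1. The snoRNAs SNORD49A, SNORA24 and SNORA9 lie wholly within such exons of their hosts, so introns of the spliced RNA are partly counted. The order per kb depends on these lengths, and the ranges show only the scatter of libraries. SNHG18 and SNHG27 were at or near 0 in the short reads of both lines.

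**Figure D1:**
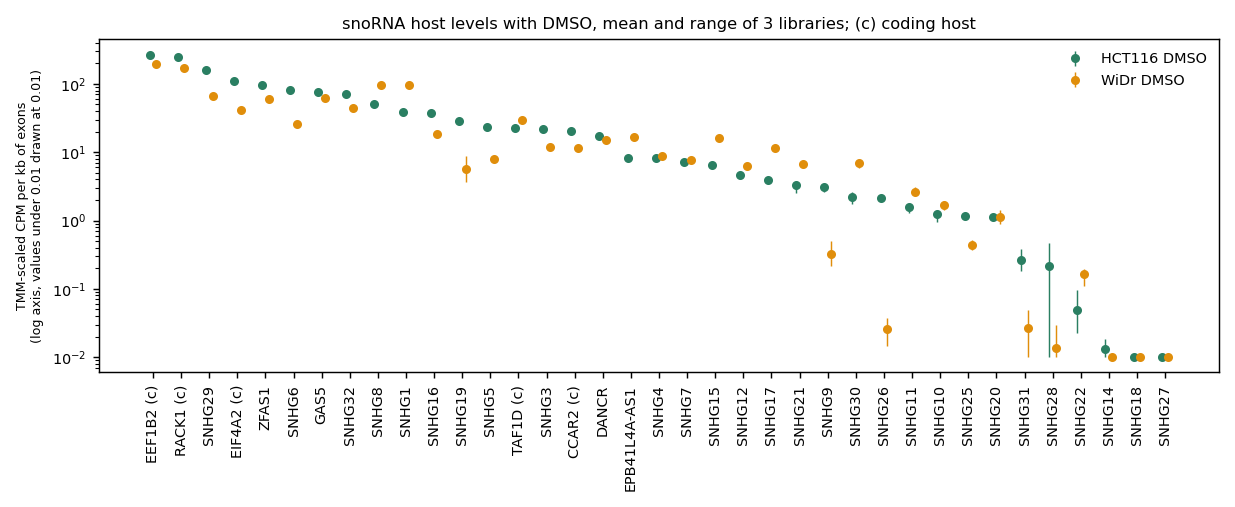
Level of each of the 37 hosts with DMSO in HCT116 (green) and WiDr short reads (orange), in CPM per kb of exons on a log axis, ordered by HCT116; points are means and bars the range of 3 libraries. EEF1B2 at 268 and RACK1 at 247 CPM per kb lead in HCT116, and SNHG29 at 159 leads its noncoding hosts. Length counts the bases of any GENCODE 29 exon, which partly include introns of the spliced RNA, and the order depends on it.

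For 13 members, 12 of them noncoding, at least 10% of the exonic bases lie in exons of another gene in GENCODE 29: SNHG4, SNHG6, SNHG7, SNHG10, SNHG16, SNHG21, SNHG28, SNHG29, SNHG32, DANCR, EPB41L4A-AS1, ZFAS1 and CCAR2. Neither the strand nor the annotation used for counting is stated in the sources used here, so reads of these genes and their neighbours cannot be told apart there, and their values are uncertain in that respect. The overlap was 100% for SNHG28, 72.9% for SNHG21, 49.6% for EPB41L4A-AS1, 38.2% for CCAR2 and between 11.9% and 30.6% for the other 9.

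Most noncoding hosts were higher with GSK715 in HCT116. Of 29 tested, 18 were higher and 1, SNHG17, was lower (62.1% and 3.45%), where 22.1% of all 19751 genes tested were higher and 24.2% lower. Of the coding hosts 4 were higher and TAF1D lower, so that 22 of 34 tested members rose and 2 fell. At least 2-fold rises were seen for 9 noncoding hosts and no coding host, against 2.67% of all genes. The median log2 fold change was 0.71 over the noncoding hosts, 0.45 over the coding hosts and -0.05 over all genes. SNHG18, SNHG22 and SNHG27 had too few counts to be tested in this line, and the 10 members tested but not called were SNHG4, SNHG10, SNHG11, SNHG14, SNHG15, SNHG20, SNHG26, SNHG28, SNHG30 and SNHG31.

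SNHG19, a short gene on chr16:2154797-2155358 whose intron holds SNORD60, was the host with the largest rise. It was at 10.7, 9.38 and 9.46 CPM with DMSO and at 73.8, 71.0 and 70.4 CPM with GSK715, a 7.29-fold increase (log2 fold change 2.86 ± 0.08, approximate SE, adjusted p = 1.1e-10). The GSK025 libraries lay between, at 21.5, 25.7 and 25.1 CPM, and no group overlapped another. SNHG29 (chr17:16438822-16478678), which carries the SNORD49 copies and SNORD65, had the highest level per kb of the noncoding hosts in this line. Its libraries were at 616, 602 and 570 CPM with DMSO and 1550, 1461 and 1416 CPM with GSK715, and the increase was 2.48-fold (1.31 ± 0.05 on the log2 scale, adjusted p = 4.2e-10). SNHG25, the host of SNORD104, rose 4.03-fold from a very low level, 0.31 to 0.34 CPM with DMSO and 1.01 to 1.53 CPM with GSK715 (2.01 ± 0.40, adjusted p = 0.00093).

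GAS5, named for its accumulation in growth-arrested cells and host of 11 snoRNAs (10 C/D), was measured at 280, 277 and 282 CPM with DMSO. With GSK715 it was at 577, 559 and 575 CPM, 2.04-fold higher (1.03 ± 0.07 on the log2 scale, adjusted p = 5.0e-08). Every treated library lay above every DMSO library. ZFAS1, which starts next to the zinc-finger gene ZNFX1 on the other strand, rose from 215, 226 and 214 CPM to 398, 425 and 429 CPM (0.93 ± 0.06, adjusted p = 6.7e-08). DANCR, described as a noncoding RNA that opposes differentiation, went from 39.3, 36.4 and 40.9 CPM to 76.2, 76.9 and 75.3 CPM (0.97 ± 0.05, adjusted p = 1.7e-08). These 3 genes thus stood close to 2-fold above DMSO with no overlap of the libraries.

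SNHG1, the host of SNORD22 and 7 other C/D snoRNAs, rose less: 138, 151 and 143 CPM with DMSO and 196, 190 and 195 CPM with GSK715 (0.43 ± 0.05, adjusted p = 2.0e-05). SNHG7, host of SNORA17A and SNORA17B, was at 31.4, 32.1 and 31.5 CPM with DMSO and 68.4, 65.1 and 62.4 CPM with GSK715 (1.04 ± 0.06, adjusted p = 1.6e-08). SNHG32, host of SNORD48 and SNORD52 and annotated as the coding gene C6orf48 in GENCODE 29, was 2.04-fold higher, from 128, 131 and 128 CPM to 268, 266 and 259 CPM (1.03 ± 0.05, adjusted p = 2.5e-09). None of these treated libraries overlapped DMSO.
SNHG8, host of SNORA24, rose from 46.8, 47.0 and 49.0 CPM to 104, 89.4 and 95.9 CPM (1.02 ± 0.07, adjusted p = 7.5e-08). SNHG6 went from 98.1, 99.9 and 102 CPM to 201, 191 and 184 CPM (0.94 ± 0.08, adjusted p = 4.0e-07). SNHG21, of which 72.9% of the exonic bases overlap another gene, went from 2.71, 3.77 and 4.0 CPM to 8.71, 9.33 and 9.44 CPM (1.39 ± 0.20, adjusted p = 7.4e-05). The remaining rises were those of SNHG9 (log2 fold change 1.15), SNHG3 (0.93), EPB41L4A-AS1 (0.71), SNHG5 (0.45), SNHG12 (0.38) and SNHG16 (0.25).

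SNHG17, host of the 4 SNORA71 copies A to D, was the noncoding exception. It was at 15.4, 15.3 and 17.8 CPM with DMSO and 9.35, 11.9 and 10.7 CPM with GSK715 (-0.60 ± 0.11, adjusted p = 0.00051), with every treated library below DMSO. Among the coding hosts, TAF1D, a subunit of the selectivity factor of RNA polymerase I and host of 8 snoRNAs, fell from 198, 179 and 198 CPM to 105, 111 and 110 CPM (-0.82 ± 0.06, adjusted p = 2.2e-07). RACK1 rose from 1467, 1477 and 1500 CPM to 2138, 2035 and 2017 CPM (0.48 ± 0.03, adjusted p = 5.1e-08). The other 3 coding hosts moved by similar amounts.
EEF1B2 rose from 515, 515 and 508 CPM to 732, 682 and 694 CPM (0.45 ± 0.06, adjusted p = 2.5e-05). EIF4A2, an RNA helicase of translation initiation, rose from 685, 693 and 668 CPM to 852, 885 and 896 CPM (0.36 ± 0.04, adjusted p = 3.0e-06). CCAR2, a regulator of the deacetylase SIRT1, rose from 128, 135 and 141 CPM to 207, 200 and 189 CPM (0.56 ± 0.06, adjusted p = 3.3e-06). No treated library of these 3 overlapped DMSO.
Scaled by library totals in place of TMM, which moved the median of all genes by -0.16 in this comparison, the rises of SNHG12 (adjusted p = 0.096) and SNHG16 (adjusted p = 0.055) were no longer called, and 20 members rose and 3 fell. Over all genes, 2994 were then higher and 6343 lower, in place of 4372 and 4785. Across the 29 tested noncoding hosts, Spearman's rho of the log2 fold change with exonic length was -0.47 (-0.29 over 11192 genes of at least 5 CPM), a description across genes of the same libraries; its part in the result was not tested.

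**Figure D2:**
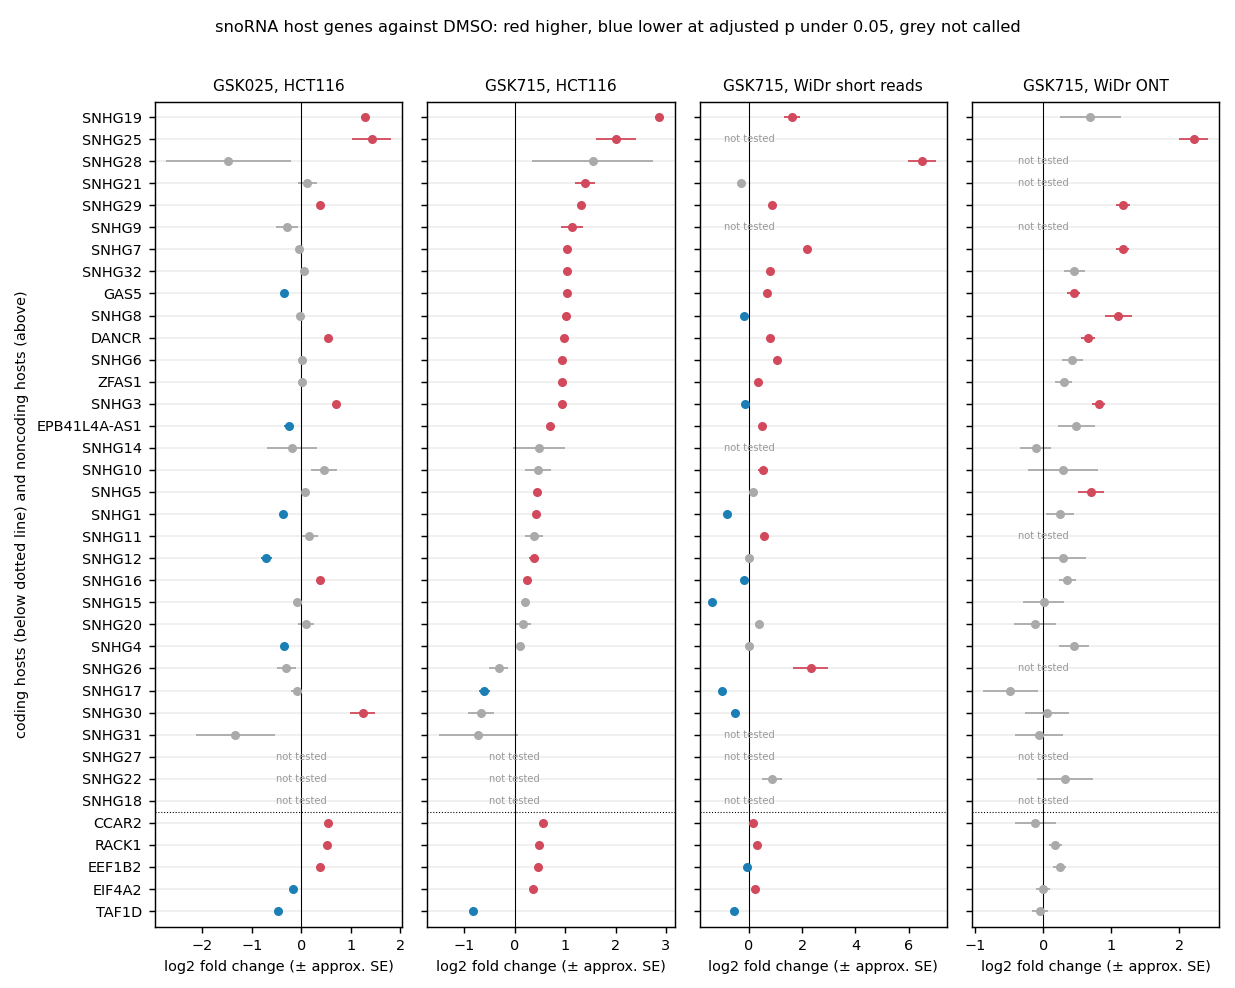
Log2 fold change of each host against DMSO (x axis, point ± approximate SE) in the 4 inhibitor comparisons, with red for higher, blue for lower and grey for not called at an adjusted p under 0.05. In HCT116 with GSK715, 22 of 34 tested members lie to the right and are red, with SNHG19 at 2.86 outermost; in WiDr short reads, 16 are red and 9 blue, which becomes 20 and 5 with scaling by library totals. Over all genes that scaling gave 7495 higher and 5300 lower in WiDr short reads, in place of 6502 and 6225.

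GSK025 moved the hosts of HCT116 in both directions. Of 29 noncoding hosts tested, 7 were higher and 5 lower, near the 22.0% higher and 22.1% lower of all genes tested, and the median log2 fold change was 0.01. Among the coding hosts, EEF1B2, RACK1 and CCAR2 were higher and TAF1D and EIF4A2 lower, making 10 higher and 7 lower of 34 members. At least 2-fold rises were found for SNHG19, SNHG25 and SNHG30, against 1.35% of all genes. These libraries were compared with the same DMSO libraries as those of GSK715, so the values of each comparison are given side by side and the inhibitors are compared by their own test.

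SNHG19 rose 2.45-fold with GSK025 (1.29 ± 0.08 on the log2 scale, adjusted p = 7.3e-08), to the libraries of 21.5 to 25.7 CPM given above. SNHG30, host of SNORD7, was at 2.66, 3.44 and 3.88 CPM with DMSO and 7.0, 8.95 and 7.63 CPM with GSK025 (1.24 ± 0.26, adjusted p = 0.0014). SNHG25 rose from 0.31 to 0.34 CPM to 0.58 to 1.12 CPM (1.42 ± 0.39, adjusted p = 0.0098). All 3 had no overlap with DMSO.
SNHG3, host of SNORA73A and SNORA73B, which act in ribosomal RNA processing, rose from 86.5, 88.9 and 89.5 CPM to 134, 141 and 155 CPM (0.70 ± 0.05, adjusted p = 2.4e-07). DANCR was at 54.8, 56.5 and 57.8 CPM (0.54 ± 0.05, adjusted p = 3.3e-06) and SNHG29 at 735, 769 and 806 CPM (0.37 ± 0.05, adjusted p = 2.0e-05), both above every DMSO library. SNHG16 was the remaining noncoding rise (0.36).

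GAS5 fell with GSK025, to 195, 214 and 246 CPM from 277 to 282 CPM (-0.36 ± 0.07, adjusted p = 0.00050). SNHG1 fell to 106, 108 and 120 CPM (-0.37 ± 0.05, adjusted p = 7.6e-05), and SNHG12, host of 4 snoRNAs, fell from 21.5, 18.4 and 19.4 CPM to 12.1, 11.3 and 12.9 CPM (-0.71 ± 0.10, adjusted p = 8.9e-05). The treated libraries of all 3 lay below every DMSO library. SNHG4 (-0.35) and EPB41L4A-AS1 (-0.26, adjusted p = 0.035) were lower too. The call of EPB41L4A-AS1 was lost without DMSO replicate 1, 2 or 3 and without GSK025 replicate 1 or 2, with adjusted p between 0.052 and 0.16, and also with no count filter (0.087).
ZFAS1 was not called, at 210, 206 and 246 CPM (0.02 ± 0.06, adjusted p = 0.86), nor was SNHG7, at 29.2, 30.9 and 31.6 CPM (-0.05 ± 0.06, adjusted p = 0.53). Both overlapped DMSO. SNHG6, SNHG8, SNHG17, SNHG21 and SNHG32 were not called either, with log2 fold changes between -0.09 and 0.12, nor were SNHG5, SNHG9, SNHG10, SNHG11, SNHG14, SNHG15, SNHG20, SNHG26, SNHG28 and SNHG31. Among the coding hosts, RACK1 was at 2100, 2111 and 2145 CPM (0.52 ± 0.03, adjusted p = 4.5e-08), CCAR2 at 202, 203 and 179 CPM (0.53 ± 0.06, adjusted p = 6.3e-06) and EEF1B2 at 598, 669 and 729 CPM (0.38 ± 0.06, adjusted p = 0.00014). TAF1D fell to 134, 129 and 152 CPM (-0.47 ± 0.06, adjusted p = 3.1e-05) and EIF4A2 to 590, 600 and 635 CPM (-0.16 ± 0.04, adjusted p = 0.0024). None of the 5 overlapped DMSO.

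The inhibitors were also compared directly. Under 5 µM GSK715, 18 of 29 noncoding hosts were higher than under 10 µM GSK025 and 3 were lower, and of the coding hosts EIF4A2 was higher and TAF1D lower, so that 19 members were higher and 4 lower, where 21.8% of all genes tested were higher and 22.5% lower. Median log2 differences were 0.67 for noncoding hosts, 0.03 for coding hosts and near 0 for all genes. The difference between the host classes was not tested.
GAS5 was 2.61-fold higher with GSK715 than with GSK025 (1.39 ± 0.07 on the log2 scale, adjusted p = 4.5e-09), SNHG19 2.98-fold (1.57 ± 0.08, adjusted p = 7.6e-09), SNHG12 2.13-fold (1.09 ± 0.10, adjusted p = 2.4e-06) and SNHG7 2.13-fold (1.09 ± 0.06, adjusted p = 1.1e-08). Their GSK715 libraries all lay above their GSK025 libraries. SNHG30 differed most in the other direction, at 2.74, 1.28 and 2.31 CPM with GSK715 against 7.0 to 8.95 CPM with GSK025 (-1.90 ± 0.26, adjusted p = 6.4e-05). SNHG17 (-0.50) and SNHG16 (-0.12) were lower too. The other noncoding hosts called were higher with GSK715, from SNHG9 (1.44) and SNHG21 (1.27) to SNHG3 (0.23).
RACK1 (-0.04 ± 0.03, adjusted p = 0.34), CCAR2 (0.03 ± 0.06, adjusted p = 0.70) and EEF1B2 (0.08 ± 0.06, adjusted p = 0.31) were not called, and their libraries overlapped. A p that misses the threshold does not show that these genes responded alike. The call of SNHG16 was lost without GSK025 replicate 1 or 3 and without GSK715 replicate 2 or 3 (adjusted p between 0.066 and 0.093), and that of SNHG15 (0.30) without GSK025 replicate 2 or GSK715 replicate 2 (0.052 and 0.062) and with library totals (0.067).

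**Figure D3:**
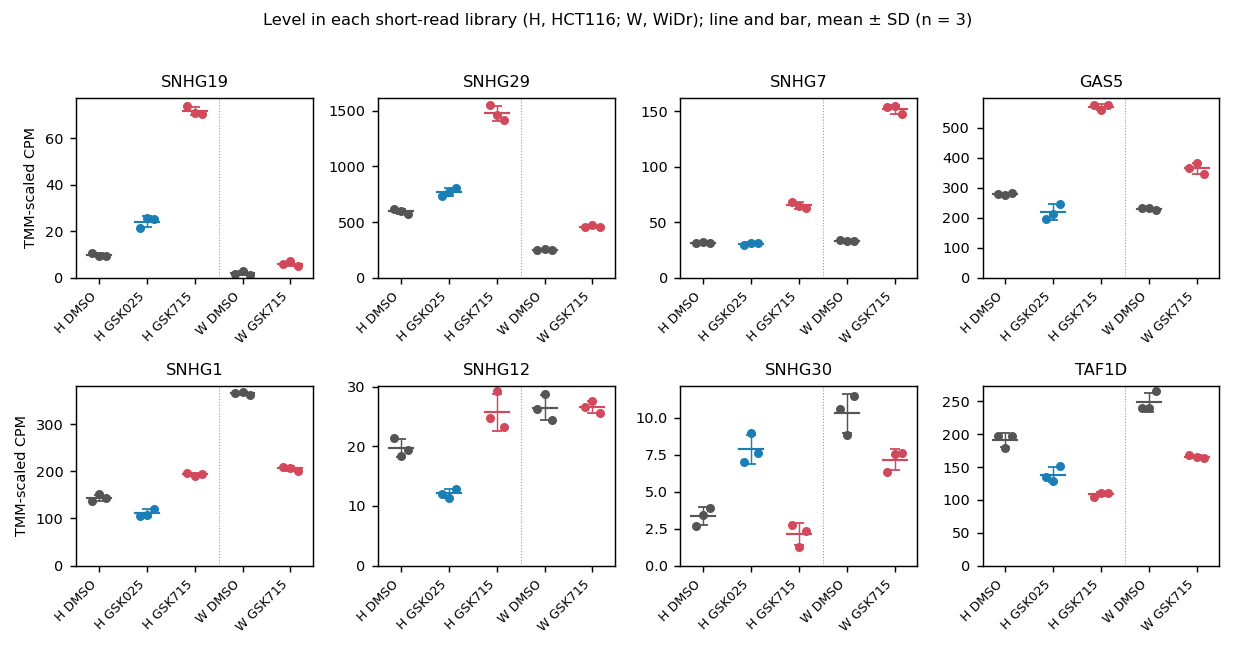
TMM-scaled CPM (y axis, from 0) of 8 hosts in each short-read library of HCT116 (H) and WiDr (W); points are libraries, lines and bars the mean ± SD of 3. SNHG19 stands at 70.4 to 73.8 CPM with GSK715 in HCT116 against 9.38 to 10.7 CPM with DMSO, SNHG1 is higher than DMSO with GSK715 in HCT116 and lower in WiDr, and SNHG30 is highest among the HCT116 groups with GSK025, at 7.0 to 8.95 CPM.

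In WiDr, GSK715 split the noncoding hosts. With short reads 13 of 26 tested rose and 7 fell, where 33.6% of all 19340 genes tested were higher and 32.2% lower; with the 5 coding hosts (3 higher, 2 lower) the members came to 16 higher and 9 lower of 31. The median log2 fold change was 0.43 for noncoding hosts, 0.13 for coding hosts and 0.05 for all genes. Of the noncoding hosts 5 rose at least 2-fold and 2 fell at least 2-fold, against 17.5% and 10.5% of all genes. Library totals in place of TMM moved the median of all genes by 0.12 and gave 20 members higher and 5 lower in place of 16 and 9. Over all genes, 7495 were then higher and 5300 lower, in place of 6502 and 6225. Not tested here were SNHG9, SNHG14, SNHG18, SNHG25, SNHG27 and SNHG31, and SNHG4, SNHG5, SNHG12, SNHG20, SNHG21 and SNHG22 were tested and not called.

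SNHG7 had the firmest rise, from 33.7, 33.1 and 33.2 CPM with DMSO to 154, 155 and 148 CPM with GSK715, 4.56-fold (2.19 ± 0.03 on the log2 scale, adjusted p = 2.5e-11). SNHG6 went from 32.7, 32.3 and 30.5 CPM to 64.9, 69.1 and 63.0 CPM (1.05 ± 0.05, adjusted p = 4.2e-08), and SNHG29 from 245, 258 and 251 CPM to 454, 472 and 451 CPM (0.87 ± 0.03, adjusted p = 4.7e-09). These treated libraries lay above every DMSO library. SNHG19, at a low level here, went from 1.51, 3.01 and 1.26 CPM to 5.66, 7.02 and 4.93 CPM (1.61 ± 0.31, adjusted p = 0.0012).
GAS5 rose from 231, 231 and 224 CPM to 365, 382 and 346 CPM (0.67 ± 0.04, adjusted p = 1.3e-07), DANCR from 35.0, 33.5 and 35.3 CPM to 57.3, 60.9 and 61.1 CPM (0.79 ± 0.05, adjusted p = 1.8e-07), and ZFAS1 from 122, 139 and 139 CPM to 170, 171 and 167 CPM (0.35 ± 0.05, adjusted p = 0.00011). SNHG32 went from 80.9, 80.8 and 78.0 CPM to 142, 145 and 132 CPM (0.81 ± 0.04, adjusted p = 5.5e-08). Groups did not overlap for any of these 4 hosts. EPB41L4A-AS1 (0.47), SNHG11 (0.57) and SNHG10 (0.53) rose too, the last with its call lost without DMSO replicate 2 or 3 or GSK715 replicate 1 or 2 (adjusted p between 0.054 and 0.11). SNHG28, wholly overlapped by another gene's exons, had 4, 0 and 2 counts with DMSO and 171, 192 and 205 counts with GSK715 (6.49 ± 0.53, adjusted p = 2.1e-06), and SNHG26 rose from under 0.1 CPM to 0.28 to 0.38 CPM (2.32 ± 0.65, adjusted p = 0.0098).

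SNHG15, host of SNORA9, fell most, from 60.5, 60.2 and 58.9 CPM to 22.8, 22.0 and 24.4 CPM (-1.38 ± 0.05, adjusted p = 7.2e-09). SNHG17 fell from 48.1, 51.2 and 43.5 CPM to 23.1, 24.1 and 23.1 CPM (-1.02 ± 0.07, adjusted p = 4.1e-07), and SNHG1 from 366, 367 and 362 CPM to 209, 208 and 201 CPM (-0.83 ± 0.03, adjusted p = 3.4e-09). In each, all treated libraries lay below DMSO. SNHG30 was also lower (-0.52). SNHG3 (-0.15), SNHG8 (-0.20) and SNHG16 (-0.20) were called lower with TMM, but not with library totals (adjusted p = 0.58, 0.25 and 0.16).
SNHG8 was at 82.9, 96.0 and 86.9 CPM with DMSO and 78.6, 79.5 and 73.9 CPM with GSK715, and SNHG21 at 7.12, 7.70 and 6.64 CPM and 6.79, 5.79 and 4.89 CPM (-0.30 ± 0.15, adjusted p = 0.11), the latter with overlap. Of the coding hosts, TAF1D fell from 240, 240 and 266 CPM to 169, 165 and 164 CPM (-0.58 ± 0.04, adjusted p = 9.2e-07). RACK1 rose from 1019, 1016 and 987 CPM to 1263, 1262 and 1225 CPM (0.31 ± 0.02, adjusted p = 8.4e-07). The TAF1D and RACK1 groups did not overlap.
EIF4A2 rose from 254, 242 and 256 CPM to 294, 294 and 294 CPM (0.23 ± 0.03, adjusted p = 6.3e-05). CCAR2 went from 77.5, 79.3 and 71.7 CPM to 84.1, 85.5 and 80.9 CPM (0.13 ± 0.04, adjusted p = 0.021), and its call was lost without DMSO replicate 3 or GSK715 replicate 1 or 2 (adjusted p between 0.075 and 0.11). EEF1B2 was slightly lower, at 357, 350 and 346 CPM against 372, 373 and 363 CPM (-0.07 ± 0.03, adjusted p = 0.033). That call was lost without DMSO replicate 1 or 2 or GSK715 replicate 2 or 3 (adjusted p between 0.052 and 0.088), and its sign turned to 0.051 with library totals.

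The responses of the lines to the same dose of GSK715 differed for most hosts. With the difference tested as an interaction, the log2 fold change was smaller in WiDr than in HCT116 for 21 of 35 members (17 noncoding) and larger for 3. Of all 21791 genes tested, 23.5% were smaller (5129) and 23.2% larger (5058). Library totals moved the median of all genes by 0.35 and gave 11 members smaller and 7 larger. Over all genes, 3203 were then smaller and 7321 larger. SNHG15 (-1.66 ± 0.09, adjusted p = 6.5e-09), SNHG1 (-1.32 ± 0.05, adjusted p = 1.9e-10), SNHG8 (-1.29 ± 0.09, adjusted p = 5.5e-08) and SNHG3 (-1.15 ± 0.05, adjusted p = 3.1e-10) were the hosts of over 20 CPM with the largest gap. SNHG7 was the host of that level that responded more in WiDr (1.08 ± 0.06, adjusted p = 3.9e-09).
Of 30 members tested in both lines, 12 were higher with GSK715 in both (9 noncoding: SNHG6, SNHG7, SNHG19, SNHG29, SNHG32, DANCR, EPB41L4A-AS1, GAS5 and ZFAS1) and 2, SNHG17 and TAF1D, lower in both. Of all 16313 genes tested in both lines, 11.2% were higher in both, 14.3% lower in both and 8.96% higher in HCT116 and lower in WiDr. SNHG1, SNHG3, SNHG8, SNHG16 and EEF1B2 were higher in HCT116 and lower in WiDr, of which the WiDr decrease of SNHG1 alone held with library totals. SNHG6 responded with 0.94 in HCT116 and 1.05 in WiDr, an interaction of 0.04 ± 0.06 (adjusted p = 0.71), and TAF1D with -0.82 and -0.58 (0.16 ± 0.07, adjusted p = 0.073). The interaction was fitted to both lines together with its own TMM factors. It lay below the gap between the separate fits for SNHG6 and TAF1D. The same held for SNHG1, SNHG3, SNHG7, SNHG15, GAS5, DANCR, RACK1 and EIF4A2. For these hosts the joint scaling thus shifted the difference toward a smaller response in WiDr, the direction of most calls. Small gaps depend on this scaling.
The gaps of GAS5 (-0.43), ZFAS1 (-0.66), SNHG29 (-0.51), DANCR (-0.25) and SNHG32 (-0.29) were called as well, but with library totals those of GAS5 (adjusted p = 0.21), DANCR and SNHG32 were not, and DANCR and SNHG32 turned to 0.10 and 0.061. The gaps of SNHG5, SNHG12, SNHG17 and CCAR2 were also not called with library totals (adjusted p between 0.10 and 0.92), and those of RACK1 and EIF4A2 were called in the other direction, at 0.12 (adjusted p = 0.0051) and 0.15 (adjusted p = 0.014). The calls of SNHG12, SNHG25, SNHG28 and DANCR were lost without single libraries: SNHG12 without DMSO replicate 2 or GSK715 replicate 2 of HCT116 or DMSO replicate 2 or GSK715 replicate 3 of WiDr, SNHG25 without GSK715 replicate 3 and SNHG28 without DMSO replicate 2 of HCT116, and DANCR without GSK715 replicate 1 of WiDr (adjusted p between 0.054 and 0.064).

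**Figure D4:**
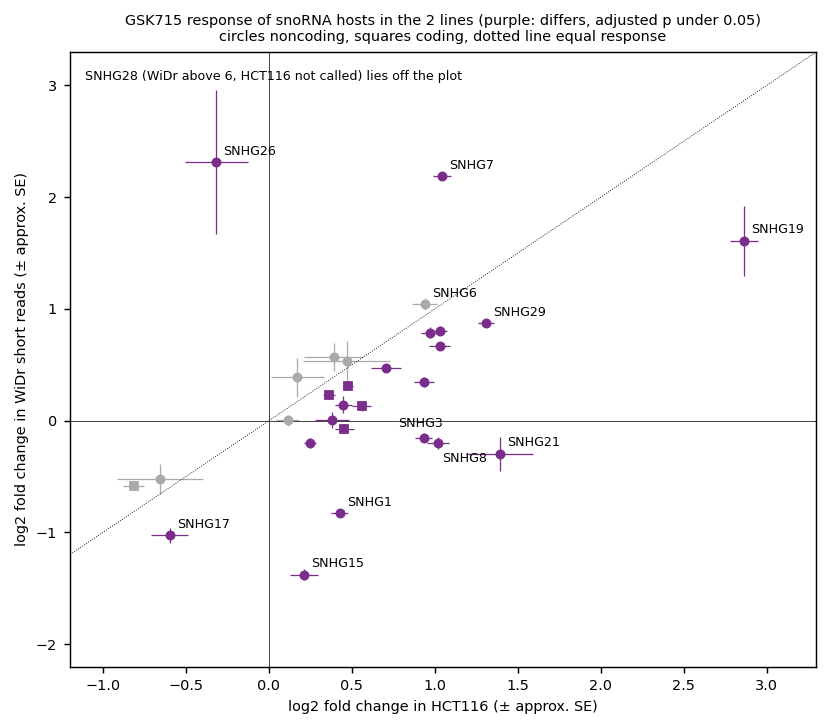
Log2 fold change with GSK715 in HCT116 (x axis) against WiDr short reads (y axis), each ± approximate SE, for hosts tested in both; purple marks a tested difference between the lines. Most hosts lie under the dotted line of equal response, such as SNHG15 (0.21 in HCT116, -1.38 in WiDr) and SNHG1 (0.43 and -0.83), and SNHG7 (1.04 and 2.19) lies above it; SNHG28 is off the plot, and with scaling by library totals the differing hosts number 7 above and 11 below in place of 3 and 21. Over all genes that scaling gave 7321 above and 3203 below, in place of 5058 and 5129.

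The ONT libraries of WiDr gave rises only. Of 25 noncoding hosts tested 8 were higher with GSK715 and 0 lower, where 4.29% of all 15877 genes tested were higher and 4.51% lower, and none of the 5 coding hosts was called by edgeR or by DESeq2. At an unadjusted p under 0.05, 15 members were higher (2 of them coding) and 0 lower, where 10.7% of all genes were higher and 10.8% lower at that p, and DESeq2 called 5 higher and 0 lower. A rise of at least 2-fold was called for SNHG25, SNHG7, SNHG29 and SNHG8, against 2.15% of all genes, and the median log2 fold change was 0.43 for noncoding hosts and within 0.01 of 0 for coding hosts and for all genes. SNHG9, SNHG11, SNHG18, SNHG21, SNHG26, SNHG27 and SNHG28 were not tested.
SNHG25 rose from 19.1 and 12.3 CPM to 75.4 and 72.4 CPM, 4.63-fold (2.21 ± 0.21, adjusted p = 6.0e-11), while the short-read libraries of this line held 0.0587 to 0.147 CPM of it. SNHG7 went from 250 and 219 CPM to 544 and 513 CPM (1.17 ± 0.10, adjusted p = 8.8e-13), and SNHG29 from 175 and 181 CPM to 427 and 378 CPM (1.18 ± 0.10, adjusted p = 2.2e-12). No treated library of these hosts overlapped DMSO. SNHG3 rose from 290 and 294 CPM to 541 and 485 CPM (0.81 ± 0.09, adjusted p = 1.2e-08), and DANCR from 192 and 192 CPM to 321 and 284 CPM (0.66 ± 0.10, adjusted p = 6.2e-06).
SNHG8 rose from 25.2 and 31.5 CPM to 69.4 and 51.7 CPM (1.10 ± 0.20, adjusted p = 9.2e-05), GAS5 from 213 and 208 CPM to 282 and 293 CPM (0.45 ± 0.10, adjusted p = 0.0019) and SNHG5 from 37.1 and 31.0 CPM to 52.9 and 57.9 CPM (0.70 ± 0.19, adjusted p = 0.011). The calls of these 3 were lost with no count filter (adjusted p = 0.088, 0.084 and 0.17) and with DESeq2 (0.12, 0.16 and 0.72). With no count filter, genes called higher fell from 681 of 15877 to 141 of 39366. Those of GAS5 and SNHG5 were also lost without DMSO replicate 1 or 2, and that of SNHG5 without GSK715 replicate 2 (adjusted p between 0.064 and 0.17).
SNHG1 was at 43.0 and 28.1 CPM with DMSO and 43.8 and 41.5 CPM with GSK715 (0.25 ± 0.20, adjusted p = 0.54), and SNHG15 at 19.1 and 15.1 CPM and 21.6 and 13.1 CPM (0.01 ± 0.30, adjusted p = 1.0). ZFAS1 was at 101 and 96.1 CPM and 119 and 125 CPM (0.30 ± 0.12, adjusted p = 0.13). SNHG17 was at 9.04 and 13.6 CPM and 7.82 and 8.17 CPM (-0.48 ± 0.40, adjusted p = 0.54). SNHG1 and SNHG15 overlapped between groups, ZFAS1 and SNHG17 did not, and none was called. The other 13 noncoding hosts tested were not called either, with log2 fold changes from -0.12 (SNHG20) to 0.69 (SNHG19).
The coding hosts were at 733 and 681 CPM with GSK715 against 605 and 643 CPM for RACK1, 561 and 482 against 446 and 436 CPM for EEF1B2, 217 and 208 against 216 and 210 CPM for EIF4A2, 111 and 115 against 121 and 112 CPM for TAF1D and 16.2 and 15 against 15.3 and 18.5 CPM for CCAR2. RACK1 and EEF1B2 did not overlap between groups, and the others did. With 2 libraries per group, unchanged genes also often fail to overlap, so this does not stand in for a call.

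The measured response of 13 members in WiDr differed between the ONT and the short-read libraries. The log2 fold change was larger by ONT for 10 of 35 and smaller for 3, against 11.2% (2697) and 8.69% (2090) of all genes tested. Library totals moved the median of all genes by -0.21 and gave 7 members larger and 8 smaller. Over all genes, 1802 were then larger and 3076 smaller. The hosts SNHG3 and SNHG8, lower with short reads, were higher by ONT, with differences of 1.01 ± 0.08 (adjusted p = 2.3e-06) and 1.35 ± 0.21 (adjusted p = 0.00056). SNHG15 (1.44 ± 0.25, adjusted p = 0.0012) and SNHG1 (1.12 ± 0.17, adjusted p = 0.00037) fell with short reads and were not called by ONT, and TAF1D did likewise (0.59 ± 0.11, adjusted p = 0.0020). SNHG7 rose by both methods and less by ONT (-0.97 ± 0.08, adjusted p = 4.8e-06).
GAS5 (-0.17 ± 0.08, adjusted p = 0.18) and DANCR (-0.08 ± 0.09, adjusted p = 0.66) rose by both methods, and the difference was not called. The ONT and short-read libraries are different libraries, counted by different tools, and read type cannot be told apart from these. With library totals the calls of SNHG29 (0.14, adjusted p = 0.23), SNHG5 (0.40, adjusted p = 0.13) and EEF1B2 (0.15, adjusted p = 0.15) were lost. Calls of the difference were also lost for SNHG15 without ONT GSK715 replicate 1 (adjusted p = 0.083), for SNHG29 (0.36) without ONT DMSO replicate 1 (0.081) and for SNHG5 (0.61) without DMSO replicate 2 of the short reads, ONT DMSO replicate 2 or ONT GSK715 replicate 2 (0.051 to 0.13). That of SNHG26 (-2.99, adjusted p = 0.042) was lost without any of 9 of the 10 libraries, the exception being DMSO replicate 2 of the short reads.
Levels also differed by read type for hosts nearly absent from the WiDr short reads: SNHG14 was at 0 to 0.271 CPM there and at 22.7 to 35.8 CPM by ONT, and SNHG31 at 0 to 0.133 CPM and at 9.91 to 13.2 CPM. SNHG1 went the other way, at 201 to 367 CPM with short reads and 28.1 to 43.8 CPM by ONT. The tables were normalized separately, and no test was made of these levels.

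**Figure D5:**
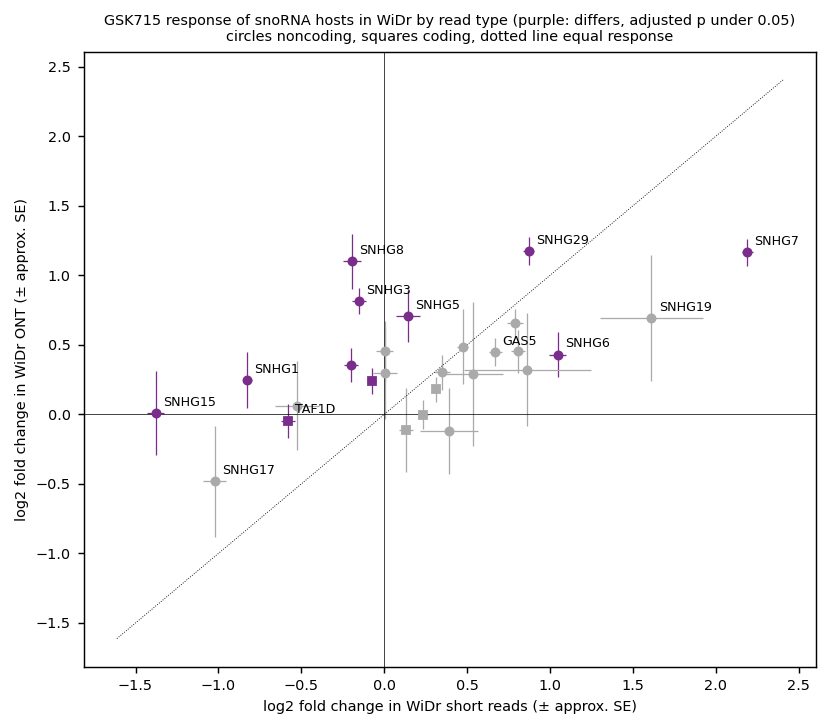
Log2 fold change with GSK715 in WiDr by short reads (x axis) against ONT (y axis), each ± approximate SE, for hosts tested by both; purple marks a tested difference between read types. SNHG3 and SNHG8 lie above 0 by ONT and under 0 with short reads, a short-read direction not called with scaling by library totals, and SNHG29, SNHG7, DANCR and GAS5 are higher by both.

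As a share of all counts, the 32 noncoding hosts together took 0.219% to 0.224% of HCT116 libraries with DMSO, 0.224% to 0.248% with GSK025 and 0.385% to 0.390% with GSK715. In WiDr short reads the share was 0.159% to 0.164% with DMSO and 0.214% to 0.223% with GSK715, and by ONT 0.171% in both DMSO libraries and 0.270% and 0.279% with GSK715. DMSO and GSK715 libraries did not overlap in any of the 3 tables. The share is weighted to the most abundant hosts and does not describe a typical one. SNHG29 had a mean of 596 CPM with DMSO and 1476 CPM with GSK715 in HCT116. SNHG1 had 365 and 206 CPM in WiDr short reads. In bulk RNA, a change in every cell and a change in the mix of cell states cannot be told apart.

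Noncoding hosts whose RefSeq snoRNAs are all C/D and those whose snoRNAs are all H/ACA had similar medians with GSK715 in HCT116, 0.71 with 9 of 12 higher and 0 lower, and 0.71 with 6 of 11 higher and 1 lower. In WiDr short reads they were 0.58 with 6 higher and 3 lower of 10, and 0.00 with 4 higher and 4 lower of 9. Of all genes tested, 22.1% were higher and 24.2% lower in HCT116 (median -0.05). In WiDr short reads these shares were 33.6% and 32.2% (median 0.05). The difference between the kinds was not tested.

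Genes related to the hosts were described from lists, with TMM scaling only. Their counts stand beside the shares of all genes given above, which were 22.1% higher and 24.2% lower with GSK715 in HCT116, 22.0% and 22.1% with GSK025, 33.6% and 32.2% in WiDr short reads, 4.29% and 4.51% by ONT, and 23.2% larger and 23.5% smaller for the difference between the lines. Of 34 other protein-coding snoRNA hosts, mostly ribosomal proteins, 26 were higher and 8 lower with GSK715 in HCT116 (median 0.59), 24 higher and 4 lower with GSK025 (0.30), 23 higher and 7 lower in WiDr short reads (0.24) and 15 higher and 0 lower by ONT (0.27). Tested as an interaction, the response to GSK715 was smaller in WiDr than in HCT116 for 28 of these 34 and larger for 3. RPSA (0.90, adjusted p = 4.2e-09) and RPL3 (0.74, adjusted p = 2.1e-09) were higher in HCT116 with GSK715, and IPO7, an import receptor, lower (-1.04, adjusted p = 2.9e-09); in WiDr short reads the chaperone HSPA8 was higher (1.94, adjusted p = 3.6e-12) and WDR43, which acts in ribosome assembly, lower (-1.35, adjusted p = 4.6e-10).
Of 23 snoRNP proteins and assembly factors, which hold and mature the snoRNAs, 8 were higher and 8 lower with GSK715 in HCT116 (median 0.00), 12 higher and 6 lower with GSK025 (0.10), and 2 higher and 17 lower in WiDr short reads (-0.57). The interaction was called smaller in WiDr for 14 of them and larger for 2. The C/D core protein NOP58 (-1.79, adjusted p = 1.6e-10) and the pseudouridine synthase DKC1 (-1.21, adjusted p = 2.8e-10) fell in WiDr short reads. In HCT116 the H/ACA protein NHP2 (0.72, adjusted p = 6.2e-08) and the C/D protein SNU13 (0.60, adjusted p = 1.4e-07) rose with GSK715. By ONT 1 of 22 was higher, PHAX (0.40, adjusted p = 0.033), and 1 lower, NOP58 (-0.50, adjusted p = 0.039), with a median of -0.04. Tested as an interaction in WiDr, the log2 fold change was larger by ONT than with short reads for 14 of 23 and smaller for 1. The median difference was 0.60, and 11.2% of all genes tested were larger and 8.69% smaller.
Among 15 nonsense-mediated decay factors, 7 were higher and 5 lower with GSK715 in HCT116 (0.10), 6 and 5 with GSK025 (0.10), 2 and 12 in WiDr short reads (-0.38) and 1 and 1 by ONT (0.05). SMG1, the kinase that phosphorylates UPF1, fell with GSK715 in HCT116 (-1.22, adjusted p = 4.5e-08) and with GSK025 (-1.35, adjusted p = 3.2e-08), and rose in WiDr short reads (0.25, adjusted p = 4.3e-05) and by ONT (0.49, adjusted p = 0.033).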

How the data were processed

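RNA-seq of 19 libraries was analysed at gene level. The short-read tables hold whole-number counts per gene as deposited by the authors, and the ONT table holds estimated counts per gene as deposited, 15.1% of them not whole, which were rounded for the fit. The submitters' processing notes list HISAT2, StringTie, minimap2, Salmon, cutadapt and DESeq2, with no version or role, and GRCh38 as the build. Annotation and strand are not given in the sources used here. Columns named NC in the WiDr tables were taken as DMSO, the only control in the labels. Symbols were looked up by Ensembl ID, and coordinates come from GENCODE 29.

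Each comparison was fitted across all genes with edgeR 4.0.16 (R 4.3.3): filterByExpr (minimum count 10, minimum total 15), TMM factors, glmQLFit and glmQLFTest, and Benjamini-Hochberg adjustment with a threshold of 0.05 (called). Differences between lines and between read types were interactions over shared IDs, with TMM factors of the joined libraries, and can differ from the gap between separate fits. SE is the absolute log2 fold change over the square root of F. CPM uses TMM-scaled totals. Overlap of libraries between groups was noted for members only, and the share of all genes without overlap is not given. Overlap therefore describes the libraries and is not a second test. The members and lists were chosen with earlier results of these data known. Library values are printed for members called with a log2 change of at least 1 and at least 5 CPM on average in that table in any inhibitor-against-DMSO comparison (at most the 8 largest per comparison), for GAS5, ZFAS1, DANCR, SNHG1 and the coding hosts; SNHG3, SNHG12, SNHG30 and other members named with values were chosen after their values were seen. Of other lists, at most the 2 smallest adjusted p per direction are named.

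Alternatives were RLE size factors, library totals, no count filter, DESeq2 1.42.0, the compared groups only, no mitochondrial genes, a replicate block, and each library left out. The fits were tested on simulated data. The ONT read statistics were not used. Replicate pairs differed by more than counting noise (chi-square per gene 1.37 to 24.6), so none was counted as 1 library deposited again.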

Additional observations from a re-analysis of the deposited data

Results flagged for a closer look

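With GSK715, 24 hosts responded differently in WiDr and HCT116 by the interaction test of edgeR (values are the WiDr minus the HCT116 log2 fold change, adjusted p under 0.05 with n = 3 libraries per group). The response was larger in WiDr for SNHG28 (4.86), SNHG26 (2.57) and SNHG7 (1.08). Of these SNHG28 and SNHG26 rest on very low counts in the DMSO libraries of WiDr, and all SNHG28 exons overlap another gene.

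It was smaller in WiDr by at least 1 for SNHG25 (-2.14), SNHG21 (-1.76), SNHG15 (-1.66), SNHG1 (-1.32), SNHG19 (-1.31), SNHG8 (-1.29) and SNHG3 (-1.15). SNHG25 had 4 to 10 counts in each WiDr short-read library. Smaller gaps were found for ZFAS1 (-0.66), EEF1B2 (-0.60), SNHG16 (-0.52), SNHG29 (-0.51), CCAR2 (-0.50), SNHG17 (-0.50), SNHG12 (-0.45), GAS5 (-0.43), SNHG5 (-0.37), EPB41L4A-AS1 (-0.30), SNHG32 (-0.29), DANCR (-0.25), RACK1 (-0.24) and EIF4A2 (-0.20). With library totals in place of TMM, the gaps of SNHG5 (-0.018, adjusted p = 0.92), SNHG12 (-0.09, 0.63), SNHG17 (-0.14, 0.45), CCAR2 (-0.14, 0.10) and GAS5 (-0.07, 0.21) were not called, those of SNHG32, DANCR and EPB41L4A-AS1 turned positive without a call, and those of RACK1 (0.12, 0.0051) and EIF4A2 (0.15, 0.014) were called in the other direction. SNHG1 and SNHG15 were lower with GSK715 in every WiDr short-read library and higher in every HCT116 library, where SNHG15 was not called. By ONT both overlapped DMSO.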

How the results depend on the processing

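With library totals in place of TMM, members called lower with GSK715 in WiDr short reads numbered 5 in place of 9, the WiDr minus HCT116 difference was higher for 7 and lower for 11 (3 and 21 with TMM), and the ONT minus short-read difference was lower for 8 (3 with TMM). Over all genes, library totals gave 5300 lower in WiDr short reads in place of 6225. The difference between lines was higher for 7321 genes and lower for 3203 (5058 and 5129 with TMM). The ONT minus short-read difference was lower for 3076 genes (2090 with TMM). The sign turned for EEF1B2 in WiDr short reads (0.051) and, in the difference between lines, for SNHG32 (0.061), DANCR (0.10), EIF4A2 (0.15, called), EPB41L4A-AS1 (0.051) and RACK1 (0.12, called). By ONT, 5 members were called higher in place of 8 with no count filter and with DESeq2. With no count filter, 141 of all 39366 genes tested were higher and 110 lower, in place of 681 and 716 of 15877. Calls thus fell across all genes in that setting, and the counts over all genes with DESeq2 are not given. The cause was not tested.

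Leaving out each library in turn, members called were 16 to 17 for GSK025 in HCT116 (10 to 11 higher, 6 to 7 lower), 24 to 26 for GSK715 in HCT116 (22 to 24 and 2 to 3), 21 to 24 between the inhibitors (18 to 20 and 3 to 4), 22 to 24 in WiDr short reads (14 to 16 and 8 to 10), 6 to 8 by ONT, 23 to 26 between lines (3 to 4 and 20 to 22) and 11 to 13 between read types (9 to 10 and 2 to 3). Counts over all genes for the fits with a library left out are not given. RLE size factors and removal of mitochondrial genes kept all 134 calls of single members.

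Same-numbered libraries did not deviate together in every pair (correlation over 0.1 in 0 of 9 HCT116 pairs and 2 of 3 WiDr pairs), so replicate numbers were not taken as pairing. With a replicate block, members called were 16 for GSK025 and 24 for GSK715 in HCT116, 23 between the inhibitors, 25 in WiDr short reads, 11 by ONT, 23 between lines and 12 between read types. EPB41L4A-AS1 (GSK025), SNHG28 (between lines) and SNHG26 (between read types) lost their calls. Over all genes the block gave 4226 higher and 4260 lower for GSK025 and 4239 and 4642 for GSK715 in HCT116. Between the inhibitors it gave 4151 and 4260, and in WiDr short reads 6249 and 6102. By ONT it gave 856 and 850, in place of 681 and 716. Between lines these counts were 4782 and 5007, and between read types 2561 and 1823. The ONT libraries had the smallest totals. By ONT 30 of 37 members were tested and 7 were not, and 31 of 37 were tested in WiDr short reads. The part of depth in this was not tested.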
